A study of Mus musculus with 12 samples.

Results

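A pair of sorted populations of mesenchymal stem cells (MSCs) from the inner surface of mouse bone, Itga8+ MSCs and Sca-1+ MSCs, were compared across all genes and in both directions. The comparison used the 6 libraries that carried these sort labels, 3 of each, out of 12 libraries and 4 populations in the series. All mice were untreated wild-type C57BL/6 males of 8 to 10 weeks. Marrow was flushed from femora, tibiae and iliac bones, the bone was digested with collagenase, and CD45-Ter119-CD31- cells, which lack the surface marks of blood, red and endothelial cells, were sorted at 2000 cells per library. Itga8+ MSCs were the Itga8+Alcam+Sca-1- fraction and Sca-1+ MSCs the Alcam-Sca-1+ fraction of the same digest. The other 6 libraries were Itga8-Alcam+Sca-1- cells of the digest, which the study calls bone-lining cells (BLCs) and the labels osteoblasts, and CD51+CD140a+ MSCs of the flushed marrow. Nothing in the labels states that replicates came from separate mice, so the p-values measure the spread between these samples, which may be technical.

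Integrin alpha 8 pairs with integrin beta 1 to form a receptor for matrix proteins that carry an RGD motif, and Alcam is an adhesion molecule of the immunoglobulin family. Sca-1, the product of Ly6a, is a lipid-anchored surface protein found on many mouse progenitor cells and on the fibroblasts of vessel walls. Stromal cells of the endosteum lay down and remodel bone matrix, and they lie next to blood stem cells.

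Read counts were scaled to the normalised library size as CPM, which gives a gene's part of all reads in its library, and values below are given in the order of replicates 1, 2 and 3. A gene was called where edgeR's quasi-likelihood test gave a Benjamini-Hochberg FDR under 0.1 over 18648 genes and the fold change was over 2. A log2 fold change is always Itga8+ over Sca-1+ MSCs. In bulk libraries, fewer cells of a type and less RNA per cell cannot be told apart.

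The libraries held between 17580677 and 21062370 counts. The Sca-1+ libraries were close to one another, with correlations of log2 (CPM + 1) across genes of 0.9827 to 0.9882, whereas the Itga8+ libraries spread more, with 0.8553 to 0.9621. The median SD of log2 CPM over replicates was 0.752 in Itga8+ and 0.231 in Sca-1+ MSCs. Itga8+ replicate 2 stood apart from the other libraries. It held 0.5455% of counts on mitochondrial genes against 0.0634% to 0.0858% in the other 5, and its summed blood cell markers, ribosomal protein genes and globin genes were the highest of the 6. Results that rest on this library are given with and without it.

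Itga8+ MSCs had 2397 genes called higher, 12.9% of those tested, and Sca-1+ MSCs had 1658, which was 8.89%. With limma-trend the counts were close to even, at 2306 and 2301. The lowest library of one population lay above the highest of the other in 7014 genes (37.6%), among them 2139 of the genes higher in Itga8+ and 1629 of those higher in Sca-1+ MSCs. Over all tested genes the log2 fold change had a median of 0.156, or of 0 without Itga8+ replicate 2. Without that library 1864 and 1413 genes were called. Without Itga8+ replicate 3 these counts were 3110 and 2768, and without Sca-1+ replicate 1, 2 or 3 they were 1514, 1358 or 1376 in the Itga8+ and 1128, 1028 or 1116 in the Sca-1+ direction. Genes called higher in Sca-1+ MSCs had longer exons, with a median of 5.14 kb, than those higher in Itga8+ MSCs, with 2.88 kb, beside 3.71 kb for all genes. The part of transcript length in the calls was examined by removing the trend of log2 CPM with exon length from each library, an alternative chosen after seeing the data, and 2061 and 1424 of the called genes kept their call.

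**Figure D1:**
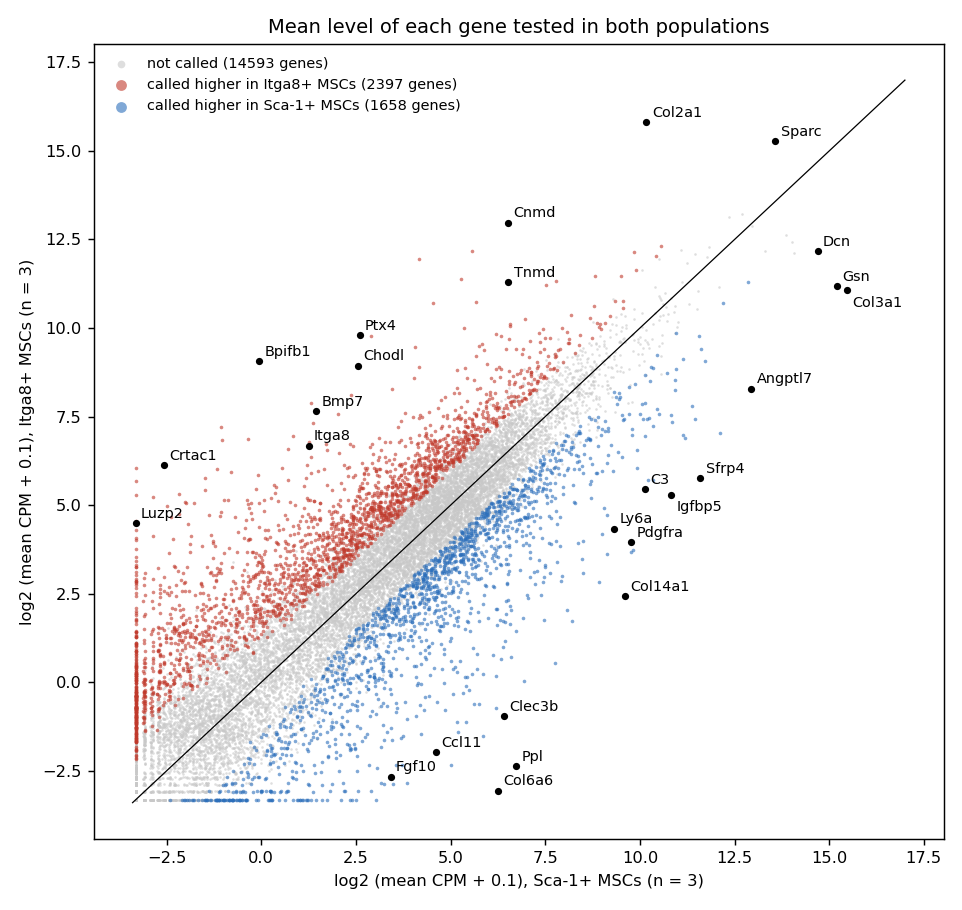
Mean level of every gene tested, as log2 (mean CPM + 0.1), in Sca-1+ MSCs (horizontal) and Itga8+ MSCs (vertical), 3 libraries each; the line marks equal levels. Red points are the 2397 genes called higher in Itga8+ MSCs, blue points the 1658 called higher in Sca-1+ MSCs, and grey points were not called; named genes are drawn in black. Col2a1, Cnmd and Bpifb1 lie far above the line, and Col3a1, Angptl7 and Col6a6 far below it.

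The gated genes followed their labels, which checks the sort and is no finding. Itga8 stood at 73.5, 35.2 and 199 CPM in the Itga8+ libraries and 2.88, 2.09 and 1.87 CPM in the Sca-1+ libraries. Ly6a stood at 23.4, 28 and 8.61 against 659, 637 and 611 CPM in the same order. Alcam transcript was low even in the Alcam+ sort, at 1.29, 5.04 and 2.72 against 0.221, 0.102 and 0.0937 CPM. Among 22 surface markers used for mouse MSCs, 2 were higher in Itga8+ and 5 in Sca-1+ MSCs, or 9.09% and 22.7% beside 12.9% and 8.89% of all genes. The former were Alcam, which the sort used, and Cdh2, the gene of N-cadherin. Pdgfra, the PDGF receptor that marks many mesenchymal progenitors, stood at 14.4, 5.35 and 26.5 CPM in the Itga8+ libraries and at 1019, 869 and 734 CPM in the Sca-1+ libraries. Cd248, Lepr, Thy1 and Cd44 were also higher in Sca-1+ MSCs, Cd44 with log2 fold change -1.18 and a call lost on leaving out 1 library in 5 of 6 cases. Nt5e, Eng, Cd200 and Cdh11 were not called.

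Among genes with a mean of at least 10 CPM, the 8 widest gaps between the populations in the Itga8+ direction included those of Bpifb1 and Bpifb5. Bpifb1, a secreted protein of the BPI fold family, stood at 571, 741 and 296 CPM in the Itga8+ libraries and 1.16, 0.763 and 0.656 CPM in the Sca-1+ libraries (log2 fold change 9.28 ± 0.785 (SE), edgeR FDR 4.37e-05). Its neighbour Bpifb5 had no read in the Sca-1+ libraries and 33.6, 66.7 and 17.2 CPM in the Itga8+ libraries, at least 256-fold higher against a floor of 3 counts per library. Bpifb1 lies at 154190818-154220369 and Bpifb5 at 154223742-154240902 on the plus strand of chromosome 2 (GRCm38, GENCODE M21). No Sca-1+ library overlapped an Itga8+ library for either gene.

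Crtac1, a calcium-binding protein of cartilage matrix, stood at 95.3, 47.4 and 66.7 CPM in Itga8+ MSCs, where 2 of 3 Sca-1+ libraries had no read and the other 0.203 CPM. Luzp2, a leucine zipper protein, had no read in any Sca-1+ library and 22.7, 20.2 and 24.6 CPM in the Itga8+ libraries, at least 147-fold higher. Spock3, a secreted proteoglycan of the testican family, had 2 reads in all in Sca-1+ MSCs and 18.3, 46.7 and 47.9 CPM in Itga8+ MSCs, a ratio of pooled counts of 1092 with an exact 95% interval of 302 to 9023 that covers counting error only. R3hdml, Krt16 (a keratin of stressed epithelium) and Fam89a completed the 8 widest gaps, with log2 fold changes of 8.57, 7.73 and 7.76.

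In the opposite direction the widest gap was that of Ppl, periplakin, a linker of keratin filaments to cell junctions, at 114, 106 and 95.6 CPM in the Sca-1+ libraries and 0.0495, 0 and 0.231 CPM in the Itga8+ libraries. Col6a6, a chain of type VI collagen, had 1 read in all in Itga8+ MSCs and 79.2, 106 and 44.3 CPM in the Sca-1+ libraries. Clec3b, the plasminogen-binding protein tetranectin, stood at 78.5, 109 and 69.3 CPM in the Sca-1+ libraries and 0.099, 0.675 and 0.462 CPM in the Itga8+ libraries (log2 fold change -7.69 ± 0.708 (SE), edgeR FDR 7.77e-05). These 3 genes stayed under 1 CPM in every Itga8+ library and over 44 CPM in every Sca-1+ library.

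Nova1, a regulator of splicing, stood at 29, 31.3 and 36 CPM in Sca-1+ MSCs and at 0.297, 0 and 0 CPM in Itga8+ MSCs. Galnt15, a glycosyltransferase, stood at 123, 114 and 127 CPM and 1.19, 1.14 and 0.462 CPM in the same order. Ifi205, an interferon-inducible gene, had a log2 fold change of -7.78. Ccl11 (eotaxin) and Fgf10, described with the other ligands below, completed this set. Ppl lies on chromosome 16 at 5086291-5132421, Col6a6 on chromosome 9 at 105687809-105828160 and Clec3b on chromosome 9 at 123150946-123157432 (GRCm38).

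In Itga8+ MSCs the called genes of highest CPM were Col2a1, Sparc, Cnmd, Ccn1, Col9a3 and Mfge8. Sparc, a collagen-binding glycoprotein, stood at 32346, 60116 and 26975 CPM in the Itga8+ libraries and 10561, 12130 and 13869 CPM in the Sca-1+ libraries (log2 fold change 1.71 ± 0.45 (SE), edgeR FDR 0.0247). Ccn1, a matricellular protein that binds integrins, stood at 5220, 5582 and 4438 against 1310, 1474 and 1699 CPM (log2 fold change 1.77 ± 0.309 (SE), edgeR FDR 0.00284). Mfge8, a secreted RGD protein and ligand of integrins, stood at 5056, 4366 and 4209 against 790, 1007 and 953 CPM (log2 fold change 2.31 ± 0.244 (SE), edgeR FDR 0.000152). All 3 were higher in each Itga8+ library than in any Sca-1+ library.

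In Sca-1+ MSCs the called genes of highest CPM were Col3a1, Gsn, Dcn, Angptl7, Prelp and Timp2. Gsn, the actin-severing protein gelsolin, stood at 44807, 38057 and 30680 CPM in the Sca-1+ libraries and 2951, 1401 and 2605 CPM in the Itga8+ libraries (log2 fold change -4.03 ± 0.364 (SE), edgeR FDR 6.62e-05). Angptl7, an angiopoietin-like protein of connective tissue, stood at 4950, 4395 and 14300 CPM in the Sca-1+ libraries and 262, 445 and 231 CPM in the Itga8+ libraries (log2 fold change -4.65 ± 0.908 (SE), edgeR FDR 0.00541). Timp2, an inhibitor of matrix metalloproteinases, stood at 4643, 4873 and 4618 CPM in the Sca-1+ libraries and 1314, 1080 and 2598 CPM in the Itga8+ libraries (log2 fold change -1.50 ± 0.347 (SE), edgeR FDR 0.0132). Again no library of one population reached the other.

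Genes of tendon and ligament cells were higher in Itga8+ MSCs where they were called. Of 20 measured, 8 were higher in Itga8+ and 0 in Sca-1+ MSCs, to be read against 12.9% and 8.89% of all genes. Their median log2 fold change was 1.14 beside 0.156 over all genes. Chodl, Tnmd, Kera and Mfap4 were put forward by the study from these same libraries, and it names Ptx4 with them, so their direction here is no independent evidence. The study also reports these genes as enriched in the Itga8 cluster of separate single-cell data of Alcam+ cells. Chodl, Tnmd, Mfap4 and Ptx4 are among the 8 and stay in the count and the median. Kera was not called. Leaving out 1 library gave 8 to 10 in the Itga8+ direction and 0 to 3 in the other, with 3 without Itga8+ replicate 3.

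Ptx4, a pentraxin, stood at 328, 1545 and 808 CPM in the Itga8+ libraries and 2.82, 7.83 and 7.17 CPM in the Sca-1+ libraries (log2 fold change 7.23 ± 0.755 (SE), edgeR FDR 0.000146). Chodl, the membrane lectin chondrolectin, stood at 268, 479 and 719 against 2.49, 5.65 and 9.18 CPM (log2 fold change 6.40 ± 0.818 (SE), edgeR FDR 0.000454). Tnmd, tenomodulin, a membrane protein that marks mature tendon cells, stood at 639, 5327 and 1536 against 73.9, 75.8 and 125 CPM (log2 fold change 4.77 ± 0.77 (SE), edgeR FDR 0.00177). In each of these genes the lowest Itga8+ library was far above the highest Sca-1+ library, while the Itga8+ libraries themselves differed several-fold, with Itga8+ replicate 2 highest for Ptx4 and Tnmd.

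Scx, scleraxis, the transcription factor that specifies tendon progenitors, stood at 131, 442 and 296 CPM in the Itga8+ libraries and 24, 32.2 and 45.4 CPM in the Sca-1+ libraries (log2 fold change 3.10 ± 0.506 (SE), edgeR FDR 0.00189). Mstn, myostatin, a restraint on muscle growth that tendon cells also make, stood at 60.4, 142 and 176 against 10.6, 21.4 and 34.5 CPM. Mfap4, a microfibril-associated glycoprotein, stood at 310, 594 and 443 against 40.2, 41.7 and 26.8 CPM (log2 fold change 3.63 ± 0.449 (SE), edgeR FDR 0.000368). Clec11a, a growth factor for osteogenic cells, stood at 632, 400 and 427 against 197, 196 and 171 CPM. The 3 Itga8+ libraries exceeded the 3 Sca-1+ libraries for all 4 genes.

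Col11a1, a collagen gene also in the list, was higher in Itga8+ MSCs, with log2 fold change 3.55. The remaining members of the list were not called. Comp, a pentameric protein of tendon and cartilage matrix, stood at 9170, 4646 and 8888 CPM in the Itga8+ libraries and 7655, 8527 and 7773 CPM in the Sca-1+ libraries. Fmod, the collagen-binding proteoglycan fibromodulin, stood at 9102, 5538 and 12462 against 4222, 5013 and 6376 CPM, and Mkx, the tendon transcription factor mohawk, at 42.9, 70.9 and 123 against 36, 35.4 and 55.4 CPM. Cilp, a cartilage intermediate layer protein, stood at 3165, 903 and 9688 against 9445, 10604 and 10300 CPM. The ranges of the libraries overlapped for all 4 genes, and Comp, Fmod and Cilp were over 900 CPM in all 6 libraries.

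Genes of adventitial fibroblasts, the cells of vessel walls and fascia that carry Sca-1, showed the opposite picture. Of 28 genes, 24 were higher in Sca-1+ and 0 in Itga8+ MSCs, or 85.7% and 0% beside 8.89% and 12.9% of all genes. Their median log2 fold change was -3.44. Their summed level was 60369, 53039 and 43889 CPM in the Sca-1+ libraries and 4785, 4316 and 4685 CPM in the Itga8+ libraries. Ly6a is in the list and was used for the sort. Leaving out 1 library gave 21 to 25 genes.

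Cd34, a sialomucin of progenitor and endothelial cells, stood at 1444, 1286 and 1182 CPM in the Sca-1+ libraries and 47.7, 61.2 and 46.7 CPM in the Itga8+ libraries (log2 fold change -4.65 ± 0.402 (SE), edgeR FDR 4.65e-05). Dpp4, the peptidase CD26, stood at 211, 168 and 166 CPM in the Sca-1+ libraries and 8.46, 10.4 and 9.42 CPM in the Itga8+ libraries (log2 fold change -4.27 ± 0.661 (SE), edgeR FDR 0.00137). Cd55, a brake on complement, stood at 363, 344 and 353 CPM in the Sca-1+ libraries and 6.88, 16.9 and 9.59 CPM in the Itga8+ libraries (log2 fold change -4.99 ± 0.373 (SE), edgeR FDR 2.69e-05). The populations did not overlap for any of these surface genes.

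Pi16, a secreted peptidase inhibitor homologue of the universal fibroblasts, stood at 201, 126 and 77.8 CPM in the Sca-1+ libraries and 25.7, 6.23 and 12.1 CPM in the Itga8+ libraries. Il33, a nuclear alarmin, stood at 237, 255 and 391 CPM in the Sca-1+ libraries and 4.3, 0.364 and 4.91 CPM in the Itga8+ libraries. Has1, a hyaluronan synthase, stood at 2861, 3056 and 2114 CPM in the Sca-1+ libraries and 218, 255 and 190 CPM in the Itga8+ libraries. Dpt, the matrix protein dermatopontin, had a log2 fold change of -4.70, Procr, the protein C receptor, of -5.31 and Cd248, endosialin, of -5.51. Efemp1, Penk and Pcolce2 were not called and stood at similar CPM in both populations, for instance 110, 163 and 102 against 171, 134 and 112 CPM for Penk, the precursor of enkephalins.

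**Figure D2:**
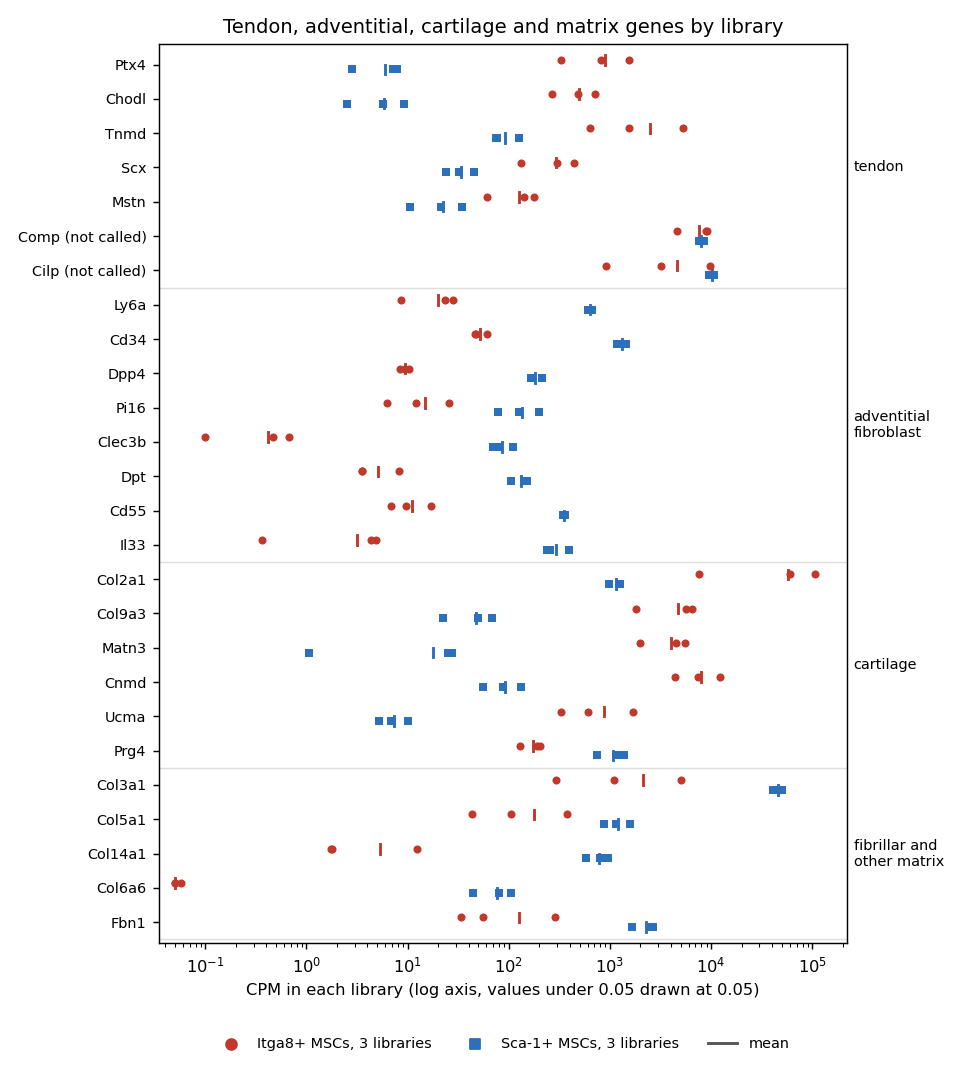
CPM of tendon, adventitial, cartilage and matrix genes in each library, on a log axis, with red circles for the 3 Itga8+ and blue squares for the 3 Sca-1+ libraries and a bar at each mean. Ptx4, Chodl and Tnmd lie to the right in Itga8+ MSCs, the adventitial genes from Ly6a to Il33 lie to the right in Sca-1+ MSCs, and Comp and Cilp overlap.

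Collagen genes were called in both directions. Of 44 collagen genes, 12 were higher in Itga8+ and 9 in Sca-1+ MSCs (27.3% and 20.5%, against 12.9% and 8.89% of all genes), with a median log2 fold change of 0.175, or 0.124 with genes at 0 reads in a population set at their bound. Col2a1, the chief collagen of cartilage, stood at 60210, 7596 and 105479 CPM in the Itga8+ libraries and 1247, 973 and 1240 CPM in the Sca-1+ libraries (log2 fold change 5.65 ± 1.04 (SE), edgeR FDR 0.00388). Col9a3 stood at 5627, 1795 and 6538 against 50, 22.5 and 68.6 CPM and Col11a2 at 766, 112 and 4247 against 54.4, 52.3 and 44.8 CPM, both partners of type II fibrils. Itga8+ replicate 2 was the lowest Itga8+ library for each of these cartilage chains, and it still lay above all Sca-1+ libraries.

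Further chains were higher in Itga8+ MSCs. Col26a1 stood at 45.7, 13 and 60.5 against 0.111, 0.254 and 0 CPM, Col22a1, which lies at tendon and cartilage junctions, at 239, 148 and 1719 against 10.7, 24 and 14.7 CPM, and Col13a1, a transmembrane collagen, at 13.8, 10.7 and 48 against 0.332, 0.458 and 1.45 CPM. None of these had a Sca-1+ library that reached the Itga8+ range.

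On the Sca-1+ side, Col3a1, the type III collagen of vessels and skin, stood at 44461, 50189 and 41326 CPM in the Sca-1+ libraries and 1098, 293 and 5036 CPM in the Itga8+ libraries (log2 fold change -4.40 ± 0.972 (SE), edgeR FDR 0.0104). Col14a1, a fibril-associated collagen, stood at 796, 962 and 584 CPM in the Sca-1+ libraries and 1.73, 1.77 and 12.4 CPM in the Itga8+ libraries (log2 fold change -7.21 ± 1.03 (SE), edgeR FDR 0.000845), and Col5a1, which sets fibril diameter, at 1146, 1594 and 863 CPM in the Sca-1+ libraries and 43.2, 105 and 379 CPM in the Itga8+ libraries (log2 fold change -2.77 ± 0.76 (SE), edgeR FDR 0.0295). Col6a5 and Col4a5 had log2 fold changes of -6.64 and -5.45. Collagens of this side numbered 7 without Sca-1+ replicate 2 and 15 without Itga8+ replicate 3.

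Type I collagen did not pass. Col1a1 stood at 5952, 213 and 7217 CPM in the Itga8+ libraries and 15135, 18954 and 17694 CPM in the Sca-1+ libraries (edgeR FDR 0.154), and Col1a2 at 4203, 1505 and 13203 against 13258, 15647 and 15532 CPM (edgeR FDR 0.23). The Sca-1+ libraries exceeded the Itga8+ libraries for both. For Col1a1, Itga8+ replicate 2 was far below the other Itga8+ libraries. For Col1a2, Itga8+ replicate 2 was the lowest and Itga8+ replicate 3 came close to the Sca-1+ range.

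Proteoglycans and glycoproteins of the fibril surface also went both ways. Among 17 small leucine-rich proteoglycans, 3 were higher in Itga8+ and 4 in Sca-1+ MSCs, shares of 17.6% and 23.5% where all genes had 12.9% and 8.89%. Dcn, decorin, stood at 25078, 23946 and 30504 CPM in the Sca-1+ libraries and 1613, 9675 and 2460 CPM in the Itga8+ libraries (log2 fold change -2.53 ± 0.656 (SE), edgeR FDR 0.0229), Lum, lumican, at 2719, 3007 and 3419 CPM in the Sca-1+ libraries and 704, 1366 and 537 CPM in the Itga8+ libraries, and Prelp at 6381, 7306 and 8420 CPM in the Sca-1+ libraries and 3059, 1250 and 3279 CPM in the Itga8+ libraries. Chadl, a chondroadherin-like protein, stood at 746, 83.3 and 610 CPM in the Itga8+ libraries and 17, 15.3 and 20.8 CPM in the Sca-1+ libraries (log2 fold change 4.76 ± 0.73 (SE), edgeR FDR 0.00129). Bgn, biglycan, was not called, at 2177, 1508 and 2109 against 1296, 1577 and 1484 CPM. Prelp lost its call without Sca-1+ replicate 3, and the proteoglycans of the Itga8+ side numbered 1 without Sca-1+ replicate 1 or 2 and 4 without Itga8+ replicate 3.

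Elastic fibre genes were higher in Sca-1+ MSCs in 8 of 23 cases and in Itga8+ MSCs in 4, or 34.8% beside 8.89% of all genes and 17.4% beside 12.9%. Fbn1, fibrillin-1, the core of microfibrils, stood at 2462, 2666 and 1636 CPM in the Sca-1+ libraries and 33.6, 55 and 287 CPM in the Itga8+ libraries (log2 fold change -4.17 ± 0.816 (SE), edgeR FDR 0.00553), and Emilin2 at 338, 360 and 218 CPM in the Sca-1+ libraries and 55.5, 11.4 and 34.6 CPM in the Itga8+ libraries. Loxl3, a lysyl oxidase that crosslinks collagen and elastin, stood at 722, 322 and 956 CPM in the Itga8+ libraries and 223, 248 and 212 CPM in the Sca-1+ libraries, and Fbn2, the fibrillin of developing tissue, at 8.71, 15.8 and 60.1 against 0.941, 4.68 and 5.58 CPM. Eln, elastin itself, was not called. Members of the Sca-1+ side numbered 4 without Itga8+ replicate 1 or Sca-1+ replicate 2 and 9 without Itga8+ replicate 3.

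Basement membrane genes were called in 4 of 23 cases in Sca-1+ MSCs, and in 1 in Itga8+ MSCs, or 17.4% beside 8.89% of all genes and 4.35% beside 12.9%. Lamb1, a laminin beta chain, stood at 265, 273 and 178 CPM in the Sca-1+ libraries and 5.1, 1.82 and 35.6 CPM in the Itga8+ libraries (log2 fold change -4.07 ± 1 (SE), edgeR FDR 0.018) and Lama4, a laminin alpha chain of vessels, at 238, 267 and 158 CPM in the Sca-1+ libraries and 18.3, 7.84 and 58.9 CPM in the Itga8+ libraries. Col4a1 and Col4a2, the core type IV chains, were not called. Col4a1 stood at 80.1, 33.7 and 661 against 523, 551 and 300 CPM, with Itga8+ replicate 3 above every other library. Leaving out libraries gave Sca-1+ counts of 4 without Itga8+ replicate 1 or 2 or Sca-1+ replicate 1 or 2 and 12 without Itga8+ replicate 3, and the Itga8+ count was 1 without Itga8+ replicate 2 and 0 without any other library.

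Matrix proteases and their inhibitors were called more often on the Sca-1+ side, in 14 of 41 genes, than on the Itga8+ side, in 8, and that difference was not tested. The shares were 34.1% and 19.5%, where all genes had 8.89% and 12.9%. Timp3, an inhibitor bound to matrix, stood at 1724, 1963 and 2194 CPM in the Sca-1+ libraries and 266, 163 and 481 CPM in the Itga8+ libraries (log2 fold change -2.69 ± 0.39 (SE), edgeR FDR 0.000917). Adamts2, which trims procollagen, stood at 902, 1044 and 943 CPM in the Sca-1+ libraries and 97.5, 26.8 and 160 CPM in the Itga8+ libraries (log2 fold change -3.34 ± 0.572 (SE), edgeR FDR 0.00246). Mmp13, a collagenase, stood at 55.1, 102 and 251 CPM in the Sca-1+ libraries and 5.24, 11.9 and 6.01 CPM in the Itga8+ libraries (log2 fold change -4.14 ± 0.626 (SE), edgeR FDR 0.00119), and Adamts5, an aggrecan-cleaving protease, at 77.5, 79 and 81.8 CPM in the Sca-1+ libraries and 13.4, 10.2 and 6.53 CPM in the Itga8+ libraries. Timp1 went the other way, at 226, 916 and 368 CPM in the Itga8+ libraries and 44.3, 80.2 and 60.4 CPM in the Sca-1+ libraries (log2 fold change 3.03 ± 0.628 (SE), edgeR FDR 0.00754). Mmp10 had no read in Sca-1+ MSCs and 7.12, 10.6 and 7.74 CPM in Itga8+ MSCs, at least 55.5-fold higher. Mmp2 and Mmp14, the broadly expressed gelatinase and its activator, were not called. The Itga8+ side numbered 5 without Sca-1+ replicate 3 and 8 without Itga8+ replicate 3.

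Cartilage genes were mostly on the Itga8+ side. Of 20, 15 were higher in Itga8+ and 1 in Sca-1+ MSCs, or 75% and 5% beside 12.9% and 8.89% of all genes. Their median log2 fold change was 3.83. Their summed level was 100850, 38186 and 142574 CPM in the Itga8+ libraries and 8341, 9533 and 11154 CPM in the Sca-1+ libraries. The count ranged from 12 to 14 with 1 library left out. The Itga8- BLCs also carried these transcripts, with a mean of 34237 CPM for Col2a1 and 3605 CPM for Matn3.

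Matn3, a matrilin of cartilage, stood at 5558, 1960 and 4446 CPM in the Itga8+ libraries and 24.8, 1.07 and 27.6 CPM in the Sca-1+ libraries (log2 fold change 7.81 ± 1.01 (SE), edgeR FDR 0.000483). Cnmd, chondromodulin, a membrane protein of cartilage that blocks vessel growth, stood at 7341, 12327 and 4406 against 87.5, 55 and 131 CPM (log2 fold change 6.46 ± 0.574 (SE), edgeR FDR 5.81e-05). Ucma, a secreted protein of the upper growth plate, stood at 613, 1693 and 328 against 5.26, 6.87 and 10.1 CPM (log2 fold change 6.89 ± 0.699 (SE), edgeR FDR 0.000132), and Hapln1, which links aggrecan to hyaluronan, at 899, 787 and 1360 against 32.4, 33.6 and 56.6 CPM. The ranges did not meet for any of them, and Itga8+ replicate 2 was highest for Cnmd and Ucma but lowest for Matn3.

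Sox9, the transcription factor of the cartilage lineage, stood at 589, 150 and 557 CPM in the Itga8+ libraries and 116, 154 and 148 CPM in the Sca-1+ libraries (log2 fold change 1.63 ± 0.436 (SE), edgeR FDR 0.0263), and its level in Itga8+ replicate 2 lay within the Sca-1+ range. Acan, aggrecan, stood at 590, 236 and 1552 against 119, 168 and 128 CPM, without overlap. Chad, chondroadherin, was not called, at 11672, 9622 and 7578 against 5556, 6369 and 7848 CPM. Col10a1, of hypertrophic cartilage, stood at 13.3, 0 and 0 against 16, 5.6 and 10.7 CPM and had no read in Itga8+ replicates 2 and 3. Prg4, the joint lubricant lubricin, was the member higher in Sca-1+ MSCs, at 740, 1367 and 1135 CPM in the Sca-1+ libraries and 188, 203 and 128 CPM in the Itga8+ libraries (log2 fold change -2.64 ± 0.355 (SE), edgeR FDR 0.000564).

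Osteoblast genes were called in 7 of 19 cases in the Itga8+ direction and in 2 in the other. The former share, 36.8%, is to be read against 12.9% of all genes, and the latter, 10.5%, lay near their 8.89%. Sp7, the osteoblast transcription factor osterix, stood at 28.2, 8.52 and 28.3 CPM in the Itga8+ libraries and 1.94, 1.63 and 1.97 CPM in the Sca-1+ libraries (log2 fold change 3.55 ± 0.455 (SE), edgeR FDR 0.000457). Runx2, which acts before it, stood at 15.2, 22.6 and 24.7 against 2.16, 3.56 and 1.69 CPM (log2 fold change 3.08 ± 0.436 (SE), edgeR FDR 0.000807), and Alpl, alkaline phosphatase, at 642, 204 and 543 against 69.1, 66.6 and 105 CPM (log2 fold change 2.53 ± 0.405 (SE), edgeR FDR 0.00169). Each Itga8+ library exceeded each Sca-1+ library for these genes.

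Bglap, osteocalcin, a protein of mature osteoblasts, stood at 5, 15 and 1.44 against 0.775, 0.203 and 1.17 CPM, beside a mean of 3304 CPM in the Itga8- BLCs, and it shares reads with its near-identical copy Bglap2, so its value is uncertain. Dmp1 stood at 0.0495, 0 and 0.462 against 0.387, 0.153 and 0.375 CPM, beside a mean of 1871 CPM in the Itga8- BLCs. Phex, a peptidase of osteoblasts and osteocytes, stood at 42.7, 25.9 and 27.5 CPM in the Sca-1+ libraries and 0.297, 0.0519 and 3.93 CPM in the Itga8+ libraries (log2 fold change -4.51 ± 1.08 (SE), edgeR FDR 0.0159). Dlx3 was also higher in Sca-1+ MSCs, with a log2 fold change of -4.10. The Bglap call was lost without Itga8+ replicate 2 or Sca-1+ replicate 1 or 2. Osteoblast genes of the Itga8+ side numbered 4 without Sca-1+ replicate 2 and 7 without Itga8+ replicate 2, and those of the Sca-1+ side 2 without Itga8+ replicate 2 or Sca-1+ replicate 1, 2 or 3 and 4 without Itga8+ replicate 1.

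Secreted Wnt inhibitors were divided between the populations gene by gene. Of 12, 4 were higher in Itga8+ and 5 in Sca-1+ MSCs (33.3% and 41.7%, against 12.9% and 8.89%). Sfrp4, a decoy for Wnt proteins, stood at 3066, 3472 and 2723 CPM in the Sca-1+ libraries and 58.5, 51.5 and 52.7 CPM in the Itga8+ libraries (log2 fold change -5.83 ± 0.371 (SE), edgeR FDR 1.03e-05). Dkk3, of the dickkopf family, stood at 409, 516 and 473 CPM in the Sca-1+ libraries and 48, 50.9 and 82.6 CPM in the Itga8+ libraries. Dkk2, of the same family, stood at 79.8, 77.6 and 64.9 CPM in the Sca-1+ libraries and 2.97, 5.35 and 3.87 CPM in the Itga8+ libraries. The groups did not overlap for any of the 3 genes.

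On the Itga8+ side, Sfrp5 stood at 86.5, 105 and 55.5 CPM in the Itga8+ libraries and 2.32, 1.53 and 3.28 CPM in the Sca-1+ libraries (log2 fold change 5.11 ± 0.5 (SE), edgeR FDR 0.000109) and Notum, an enzyme that removes the lipid of Wnt proteins, at 139, 75.1 and 105 against 5.53, 9.72 and 7.12 CPM (log2 fold change 3.83 ± 0.734 (SE), edgeR FDR 0.00491), with 38.1% of its exon bases shared with another gene. Wif1, another Wnt-binding protein, stood at 746, 1440 and 479 against 278, 358 and 381 CPM, and lost its call without Itga8+ replicate 2 or Sca-1+ replicate 1. Sfrp2 and Frzb were not called.

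The Wnt ligands and receptors were divided too, with 10 of 35 ligands, R-spondins and receptors higher in Itga8+ and 7 in Sca-1+ MSCs (28.6% and 20%, against 12.9% and 8.89%). Wnt4 stood at 21.2, 23.3 and 15.6 CPM in the Itga8+ libraries and 1.22, 1.63 and 1.36 CPM in the Sca-1+ libraries (log2 fold change 3.83 ± 0.406 (SE), edgeR FDR 0.000152), Wnt5b at 63.7, 26.1 and 45.2 against 4.87, 6.41 and 7.68 CPM (log2 fold change 2.83 ± 0.352 (SE), edgeR FDR 0.000388) and Wnt11 at 220, 179 and 198 against 88.9, 93 and 69.1 CPM. Rspo4, an R-spondin that strengthens Wnt signalling, stood at 6.88, 3.06 and 6.93 against 0.387, 0.102 and 0.187 CPM. On the Sca-1+ side, Wnt2 stood at 18.8, 14 and 6.84 CPM in the Sca-1+ libraries and 0.247, 0.26 and 0.231 CPM in the Itga8+ libraries. Rspo2, another R-spondin, stood at 10.3, 11.4 and 10.9 CPM in the Sca-1+ libraries and 0.099, 0 and 0.578 CPM in the Itga8+ libraries. Frizzled receptors followed no single direction, since Fzd9 (log2 fold change 2.05) was higher in Itga8+ and Fzd4 (-2.70) in Sca-1+ MSCs. Members of the Sca-1+ side numbered 4 without Sca-1+ replicate 3 and 8 without Itga8+ replicate 3.

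Genes of the BMP pathway were called on the Sca-1+ side in 14 of 40 cases, with 4 on the Itga8+ side. The Sca-1+ share of 35% stands beside 8.89% of all genes, and the Itga8+ share of 10% lay near their 12.9%. The ligands parted. Bmp7 stood at 264, 96 and 239 CPM in the Itga8+ libraries and 2.82, 3.1 and 1.97 CPM in the Sca-1+ libraries (log2 fold change 6.25 ± 0.901 (SE), edgeR FDR 0.000886), and Bmp4 at 75.5, 94.9 and 85.4 CPM in the Sca-1+ libraries and 5.89, 27.1 and 13.3 CPM in the Itga8+ libraries (log2 fold change -2.47 ± 0.48 (SE), edgeR FDR 0.00538). No library of one population reached the other for either ligand.

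The antagonist Fst, follistatin, stood at 41.9, 52 and 37.5 CPM in the Sca-1+ libraries and 10.6, 5.61 and 4.62 CPM in the Itga8+ libraries. Bmper, an extracellular regulator that binds BMPs, stood at 110, 85.4 and 66.8 CPM in the Sca-1+ libraries and 13.1, 2.7 and 14 CPM in the Itga8+ libraries. Fstl1, a secreted follistatin-like protein, stood at 2295, 2206 and 2219 CPM in the Sca-1+ libraries and 470, 349 and 860 CPM in the Itga8+ libraries (edgeR FDR 0.00244). The receptor Bmpr2 was also higher in Sca-1+ MSCs, with log2 fold change -2.07. Grem1 and Nog, gremlin and noggin, were under 4 CPM in all 6 libraries and were not called. With libraries left out, the Sca-1+ count was 8 without Sca-1+ replicate 2 and 15 without Itga8+ replicate 3, and the Itga8+ count 2 without Sca-1+ replicate 2 or 3 and 4 without Itga8+ replicate 2 or 3.

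TGF-beta genes were called in 7 of 19 cases in Sca-1+ MSCs and in 0 in Itga8+ MSCs, 36.8% of them beside 8.89% of all genes in the former direction, and their median log2 fold change was -1.22. Tgfb2 stood at 69.8, 106 and 86.6 CPM in the Sca-1+ libraries and 38.8, 28.8 and 45.5 CPM in the Itga8+ libraries, and Acvrl1, a type I receptor best known in vessels, at 35.7, 36.3 and 29.1 CPM in the Sca-1+ libraries and 1.88, 3.58 and 3.47 CPM in the Itga8+ libraries (log2 fold change -3.50 ± 0.379 (SE), edgeR FDR 0.000169). Tgfb1, Tgfb3 and Tgfbr2 were not called. The Sca-1+ count was 4 without Itga8+ replicate 1 or Sca-1+ replicate 2 and 12 without Itga8+ replicate 3, and 1 member was called in the Itga8+ direction without Itga8+ replicate 2.

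Of 21 FGF genes, 5 were higher in Itga8+ MSCs, namely the receptors Fgfr3, Fgfr4 and Fgfrl1 and the intracellular factors Fgf12 and Fgf13. Another 5 were higher in Sca-1+ MSCs, namely the ligands Fgf2, Fgf7, Fgf9, Fgf10 and Fgf16. The share was 23.8% on either side, beside 12.9% of all genes in the Itga8+ and 8.89% in the Sca-1+ direction. Fgfr3, the receptor that restrains growth plate cartilage, stood at 324, 37.4 and 573 CPM in the Itga8+ libraries and 10.1, 13.6 and 8.76 CPM in the Sca-1+ libraries (log2 fold change 4.85 ± 0.924 (SE), edgeR FDR 0.00477), and Fgfrl1, a receptor without a kinase, at 377, 93.8 and 396 against 36.5, 37.1 and 38.6 CPM. Fgf10 had 3 reads in all in Itga8+ MSCs and stood at 10.5, 11.5 and 9.79 CPM in Sca-1+ MSCs, a ratio of pooled counts of 200.0 with an exact 95% interval of 68.1 to 972. Fgf9 stood at 31.6, 27.5 and 66.2 CPM in the Sca-1+ libraries and 1.19, 0.831 and 0.982 CPM in the Itga8+ libraries. Fgf7, which acts on epithelia, stood at 18.6, 26.2 and 19.9 CPM in the Sca-1+ libraries and 0.396, 3.84 and 1.56 CPM in the Itga8+ libraries. Fgfr1 and Fgfr2 were not called. The Fgf12 call rested on Itga8+ replicate 2, at 0, 1.25 and 0.116 CPM over the Itga8+ libraries, and was lost without it or without any of the Sca-1+ libraries. The Itga8+ side numbered 3 without Sca-1+ replicate 2 or 3 and 5 without Itga8+ replicate 1 or 3, and 4 without Itga8+ replicate 2.

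Of the PDGF and VEGF axis, 8 of 20 genes were higher in Sca-1+ and 2 in Itga8+ MSCs (40% and 10%, against 8.89% and 12.9%). Tek, the angiopoietin receptor Tie2, stood at 93.3, 60.3 and 56.2 CPM in the Sca-1+ libraries and 4.01, 0.208 and 0.578 CPM in the Itga8+ libraries (log2 fold change -5.44 ± 1.01 (SE), edgeR FDR 0.00402). It is a defining endothelial gene. The endothelial genes Cdh5, Pecam1, Cldn5 and Emcn lay between 0 and 12.2 CPM in the 6 libraries, and none was called. Pdgfrl, a secreted receptor-like protein, stood at 189, 717 and 406 CPM in the Itga8+ libraries and 79.5, 93.4 and 109 CPM in the Sca-1+ libraries, and the ligand Pdgfa at 36, 52.1 and 59.8 against 19.2, 20.4 and 24.7 CPM. Vegfc and Vegfd, ligands for lymphatic vessels, had log2 fold changes of -2.09 and -6.21, and Vegfa was not called. The Itga8+ side numbered 1 without Itga8+ replicate 3 or Sca-1+ replicate 1 or 2 and 3 without Itga8+ replicate 2.

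The IGF axis was led by its binding proteins. Igfbp5 stood at 1730, 1932 and 1783 CPM in the Sca-1+ libraries and 24, 14.9 and 77.5 CPM in the Itga8+ libraries (log2 fold change -5.55 ± 0.733 (SE), edgeR FDR 0.000504), and Igf1, the ligand, at 523, 497 and 686 CPM in the Sca-1+ libraries and 83.1, 145 and 178 CPM in the Itga8+ libraries (log2 fold change -2.07 ± 0.368 (SE), edgeR FDR 0.00313). Igfbp2 stood at 4.8, 12 and 2.02 CPM in the Itga8+ libraries and 0.221, 0.509 and 0.234 CPM in the Sca-1+ libraries. Igfbp7 and Igfbp3 were not called. In all 3 of 15 genes were higher in Itga8+ and 4 in Sca-1+ MSCs (20% and 26.7%, against 12.9% and 8.89%). Those of the Itga8+ side numbered 1 without Sca-1+ replicate 1, 2 or 3 and 2 without Itga8+ replicate 1, 2 or 3.

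**Figure D3:**
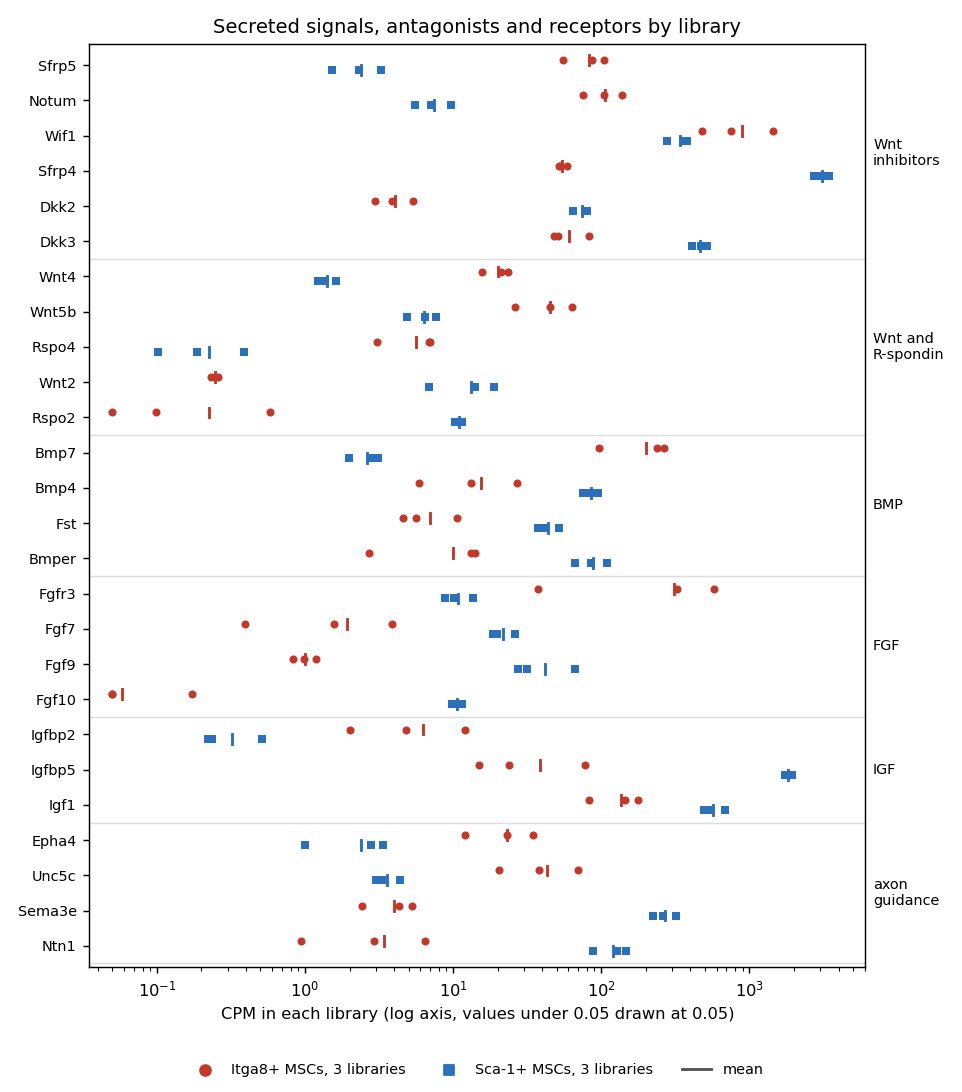
CPM of secreted signals, their antagonists and receptors in each library, on a log axis, with red circles for the 3 Itga8+ and blue squares for the 3 Sca-1+ libraries and a bar at each mean. Within each pathway some genes lie to the right in Itga8+ MSCs (Sfrp5, Wnt4, Bmp7, Fgfr3) and others in Sca-1+ MSCs (Sfrp4, Wnt2, Bmp4, Fgf10).

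Axon guidance genes numbered 11 higher in Itga8+ and 5 in Sca-1+ MSCs of 65, shares of 16.9% and 7.69% that lay near the 12.9% and 8.89% of all genes. Unc5c, a netrin receptor, stood at 38, 20.5 and 70.1 CPM in the Itga8+ libraries and 3.32, 3 and 4.36 CPM in the Sca-1+ libraries (log2 fold change 3.59 ± 0.542 (SE), edgeR FDR 0.00118), and the ephrin receptor Epha2 at 65.3, 22.5 and 101 against 4.15, 6.97 and 9.14 CPM. Epha4, a related receptor, stood at 23.1, 12 and 34.6 against 0.996, 3.36 and 2.81 CPM. The secreted netrins were on the other side, Ntn1 at 127, 147 and 87.6 CPM in the Sca-1+ libraries and 0.94, 2.91 and 6.47 CPM in the Itga8+ libraries (log2 fold change -5.13 ± 0.854 (SE), edgeR FDR 0.00211) and Ntn4 at 180, 204 and 201 CPM in the Sca-1+ libraries and 20.3, 10.2 and 15 CPM in the Itga8+ libraries. Sema3e, a secreted semaphorin, stood at 224, 321 and 260 CPM in the Sca-1+ libraries and 5.24, 2.44 and 4.28 CPM in the Itga8+ libraries (log2 fold change -6.07 ± 0.79 (SE), edgeR FDR 0.000489). Axon guidance genes of the Sca-1+ side numbered 3 without Itga8+ replicate 1 or Sca-1+ replicate 1, 2 or 3 and 18 without Itga8+ replicate 3, and those of the Itga8+ side 7 without Sca-1+ replicate 3 and 13 without Itga8+ replicate 2.

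Among 25 Hedgehog and Notch genes, 4 were higher in Sca-1+ and 3 in Itga8+ MSCs. Those 16% stand beside 8.89% of all genes and those 12% beside 12.9%. Jag1, a Notch ligand, and Cdon, a Hedgehog co-receptor, were higher in Sca-1+ MSCs (log2 fold changes -3.47 and -4.60), and Hhip, a Hedgehog decoy, and the Notch target Heyl in Itga8+ MSCs (1.99 and 3.37). The Sca-1+ side numbered 3 without Itga8+ replicate 1 or Sca-1+ replicate 1 or 2 and 7 without Itga8+ replicate 3.

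The chemokines Ccl2, Ccl7 and Ccl8, which attract monocytes, and Ccl11, which attracts eosinophils, were higher in Sca-1+ MSCs. Ccl2 stood at 146, 321 and 201 CPM in the Sca-1+ libraries and 7.08, 30.8 and 8.96 CPM in the Itga8+ libraries (log2 fold change -3.83 ± 0.71 (SE), edgeR FDR 0.00402), Ccl7 at 244, 278 and 222 CPM in the Sca-1+ libraries and 2.52, 16 and 5.08 CPM in the Itga8+ libraries (log2 fold change -4.98 ± 0.656 (SE), edgeR FDR 0.000504) and Ccl11 at 27.8, 23.3 and 21.8 CPM in the Sca-1+ libraries and 0.099, 0.364 and 0 CPM in the Itga8+ libraries (log2 fold change -7.23 ± 0.95 (SE), edgeR FDR 0.000498). Ccl8 had no read in Itga8+ MSCs and 5.53, 2.54 and 7.5 CPM in Sca-1+ MSCs, at least 32.6-fold higher. Cxcl1, a neutrophil chemokine, stood at 192, 320 and 205 CPM in the Sca-1+ libraries and 13.6, 50.3 and 11.6 CPM in the Itga8+ libraries. Of 26 chemokines, 7 were higher in Sca-1+ and 5 in Itga8+ MSCs (26.9% and 19.2%, against 8.89% and 12.9%). The latter were Ccl17, Pf4, Ppbp, Ccl4 and Cxcl16, all under 29 CPM, and numbered 2 without Itga8+ replicate 2 or Sca-1+ replicate 1, 2 or 3 and 8 without Itga8+ replicate 3.

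Complement genes were called in 11 of 25 cases in the Sca-1+ direction, 44% beside 8.89% of all genes. C3, the central component, stood at 1358, 1175 and 848 CPM in the Sca-1+ libraries and 68, 13.8 and 49.7 CPM in the Itga8+ libraries (log2 fold change -4.68 ± 0.784 (SE), edgeR FDR 0.00218). Serping1, the inhibitor of C1, stood at 2908, 2795 and 2706 CPM in the Sca-1+ libraries and 180, 192 and 142 CPM in the Itga8+ libraries (log2 fold change -4.03 ± 0.264 (SE), edgeR FDR 1.03e-05), and C4b at 1963, 2218 and 1386 CPM in the Sca-1+ libraries and 87.5, 15.8 and 387 CPM in the Itga8+ libraries. The proteases C1ra and C1s1 had log2 fold changes of -3.37 and -4.12. The list thus held both components and inhibitors among the genes higher in Sca-1+ MSCs. In the Itga8+ direction 5 were called, 20% beside 12.9% of all genes. They were C1qa, C1qb, C1qc, Cfp and C5ar1, all also genes of myeloid cells. For C1qb only Itga8+ replicate 2 had a level above 1 CPM, at 0, 25.2 and 0.116 CPM, and the same held for C1qc. Genes of this direction numbered 0 without Sca-1+ replicate 2 and 6 without Itga8+ replicate 3, and 1 without Itga8+ replicate 2.

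Interferon-induced and antigen presentation genes were higher in Sca-1+ MSCs in 10 of 38 cases and in Itga8+ MSCs in 1 (26.3% and 2.63%, against 8.89% and 12.9%). Gbp2, a guanylate-binding protein, stood at 34.2, 36.4 and 27.5 CPM in the Sca-1+ libraries and 4.01, 4.78 and 3.58 CPM in the Itga8+ libraries (log2 fold change -2.99 ± 0.301 (SE), edgeR FDR 0.000128), and Ifit2 at 33.9, 39.8 and 38.6 CPM in the Sca-1+ libraries and 7.52, 6.6 and 11.7 CPM in the Itga8+ libraries. B2m, H2-K1, H2-D1, Isg15 and Irf7 were not called. The Sca-1+ side numbered 6 without Sca-1+ replicate 3 and 14 without Itga8+ replicate 2, and the Itga8+ side 0 without Itga8+ replicate 2 or Sca-1+ replicate 1, 2 or 3 and 3 without Itga8+ replicate 3.

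Factors known to act on blood stem cells were called in 8 of 26 cases in Sca-1+ MSCs and in 3 in Itga8+ MSCs, or 30.8% beside 8.89% of all genes and 11.5% beside 12.9%. Csf1, the macrophage growth factor, stood at 419, 562 and 384 CPM in the Sca-1+ libraries and 77.4, 16 and 87 CPM in the Itga8+ libraries (log2 fold change -2.92 ± 0.593 (SE), edgeR FDR 0.00676), Jag1 at 69.7, 80.6 and 61.6 CPM in the Sca-1+ libraries and 2.87, 1.45 and 14.8 CPM in the Itga8+ libraries and Il7, a lymphoid growth factor, at 4.65, 3.51 and 4.59 CPM in the Sca-1+ libraries and 1.04, 1.04 and 2.43 CPM in the Itga8+ libraries. On the Itga8+ side, Cdh2 stood at 22.7, 12.5 and 54.9 CPM in the Itga8+ libraries and 3.38, 0.203 and 2.62 CPM in the Sca-1+ libraries (log2 fold change 3.86 ± 0.772 (SE), edgeR FDR 0.00623), Emb, the adhesion protein embigin, at 280, 776 and 305 against 117, 119 and 111 CPM (log2 fold change 1.97 ± 0.375 (SE), edgeR FDR 0.00474), and Il11 at 7.42, 5.19 and 7.45 against 1.11, 3.51 and 0.89 CPM. Il7 and Il11 each lost their call in 4 of the 6 cases of a library left out. Vcam1, Spp1 and Il6 were not called. Among 20 genes of adipogenic stroma, 4 were higher in Itga8+ and 5 in Sca-1+ MSCs, or 20% and 25% beside 12.9% and 8.89% of all genes. Ebf2 and Lepr were among the latter (log2 fold changes -5.97 and -2.55) and Apoe and Adipoq among the former (3.30 and 3.45). Pparg, Cebpa and Lpl were not called.

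Transcription factors of limb and mesenchyme were called in 11 of 67 cases in Itga8+ and in 18 in Sca-1+ MSCs. The Itga8+ share of 16.4% lay near the 12.9% of all genes, and the Sca-1+ share was 26.9% beside 8.89%. Those of the skeletal and tendon lineages, Sox9, Runx2, Sp7 and Scx, were described above. Pax1, a factor of the sclerotome, stood at 36.9, 11.9 and 24.6 CPM in the Itga8+ libraries and 4.37, 8.29 and 3.19 CPM in the Sca-1+ libraries, Meox1, of the somite, at 15.7, 17.8 and 40.8 against 4.92, 4.99 and 6.7 CPM (log2 fold change 2.16 ± 0.441 (SE), edgeR FDR 0.00696), and Six2 at 25.7, 14.1 and 38.4 against 7.58, 10.6 and 9.89 CPM. Shox2, a limb homeobox gene, had a log2 fold change of 1.08 and lost its call without Itga8+ replicate 2 or Sca-1+ replicate 1. Factors of the Itga8+ side numbered 7 without Sca-1+ replicate 3 and 14 without Itga8+ replicate 2.

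On the Sca-1+ side were Osr1 and Osr2, zinc finger factors of connective tissue, Osr1 at 43.7, 27.6 and 29.1 CPM in the Sca-1+ libraries and 1.09, 0.519 and 0.462 CPM in the Itga8+ libraries (log2 fold change -5.58 ± 0.718 (SE), edgeR FDR 0.000469) and Osr2 at 138, 152 and 122 CPM in the Sca-1+ libraries and 16.7, 13.2 and 8.49 CPM in the Itga8+ libraries (log2 fold change -3.42 ± 0.41 (SE), edgeR FDR 0.000317). Prrx1, a homeobox gene of limb mesenchyme, stood at 63, 68.6 and 75.6 CPM in the Sca-1+ libraries and 7.52, 16.7 and 11.9 CPM in the Itga8+ libraries (log2 fold change -2.52 ± 0.33 (SE), edgeR FDR 0.000493). Creb5 stood at 70, 88 and 78.5 CPM in the Sca-1+ libraries and 2.37, 3.32 and 4.04 CPM in the Itga8+ libraries (log2 fold change -4.60 ± 0.385 (SE), edgeR FDR 4.37e-05). Barx1 and Tbx4, the hindlimb T-box gene, had log2 fold changes of -3.73 and -3.29. No Itga8+ library reached the Sca-1+ range for these 6 genes.

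Most Hox genes were not called, and 2 of 23 were higher in Itga8+ and 4 in Sca-1+ MSCs, at 8.7% and 17.4% against 12.9% and 8.89% of all genes. Hoxc8 stood at 5, 4.05 and 2.66 against 1.11, 1.02 and 0.515 CPM, and Hoxa9 at 19.2, 16 and 22.9 CPM in the Sca-1+ libraries and 4.7, 11.4 and 6.18 CPM in the Itga8+ libraries. Hoxc10 and Hoxa10, of the limb set, were not called. Of 36 nuclear receptors, 11 were higher in Sca-1+ MSCs, a share of 30.6%, and 2 were called in the Itga8+ direction, a share of 5.56%. Nr3c1, the glucocorticoid receptor, stood at 210, 258 and 222 CPM in the Sca-1+ libraries and 76, 65.1 and 123 CPM in the Itga8+ libraries (log2 fold change -1.39 ± 0.3 (SE), edgeR FDR 0.0095). Vdr, the vitamin D receptor, was higher in Itga8+ MSCs, at 23.9, 4.88 and 38.1 against 6.14, 2.7 and 3.19 CPM. Nuclear receptors of the Sca-1+ side numbered 5 without Sca-1+ replicate 2 or 3 and 15 without Itga8+ replicate 3. The call of Vdr was lost without Sca-1+ replicate 2. Hox genes of the Itga8+ side numbered 1 without Itga8+ replicate 1 or Sca-1+ replicate 1, 2 or 3 and 3 without Itga8+ replicate 3.

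Of 26 integrin subunits, 3 were higher in Itga8+ MSCs, namely Itga8, which the sort used, Itgb4 and Itgad, and 6 in Sca-1+ MSCs. The shares of 11.5% and 23.1% are to be read against 12.9% and 8.89% of all genes. Itgb5 stood at 721, 760 and 649 CPM in the Sca-1+ libraries and 284, 121 and 388 CPM in the Itga8+ libraries, Itga7, a laminin receptor subunit, at 9.07, 13.6 and 9.51 CPM in the Sca-1+ libraries and 0.346, 0 and 0.578 CPM in the Itga8+ libraries and Itga2, a collagen receptor subunit, at 17.6, 28.7 and 14.8 CPM in the Sca-1+ libraries and 0.445, 1.87 and 2.08 CPM in the Itga8+ libraries. Itgb1, the partner of Itga8, was not called, at 528, 335 and 982 against 1008, 1090 and 1100 CPM. Integrins of the Sca-1+ side numbered 3 without Itga8+ replicate 1 or 2 or Sca-1+ replicate 1 or 2 and 10 without Itga8+ replicate 3.

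Contractile genes were called in 9 of 21 cases in Itga8+ and in 2 in Sca-1+ MSCs, 42.9% and 9.52% where all genes had 12.9% and 8.89%. Myl9, a myosin light chain, stood at 45.7, 144 and 55.3 CPM in the Itga8+ libraries and 5.42, 10.7 and 9.28 CPM in the Sca-1+ libraries (log2 fold change 3.27 ± 0.467 (SE), edgeR FDR 0.000837), and Cnn2, calponin 2, at 169, 197 and 164 against 61.5, 64.4 and 56.1 CPM (log2 fold change 1.54 ± 0.249 (SE), edgeR FDR 0.00178). Acta2, smooth muscle actin, stood at 63.5, 242 and 126 against 18.3, 33 and 29.2 CPM (log2 fold change 2.42 ± 0.768 (SE), edgeR FDR 0.053), with Itga8+ replicate 2 highest, and it kept its call only when Itga8+ replicate 1 or 3 was the one left out. Rgs5, Cspg4 and Mcam, genes of pericytes, were not called. Contractile genes of the Itga8+ side numbered 3 without Sca-1+ replicate 1 or 3 and 9 without Itga8+ replicate 1, and those of the Sca-1+ side 1 without Itga8+ replicate 1 or 2 or Sca-1+ replicate 1 or 2 and 3 without Itga8+ replicate 3.

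Proliferation genes were higher in Itga8+ MSCs in 19 of 24 cases and in Sca-1+ MSCs in 0, or 79.2% and 0% beside 12.9% and 8.89% of all genes. Their median log2 fold change was 1.69. Cdk1, the kinase of mitosis, stood at 105, 164 and 61.2 CPM in the Itga8+ libraries and 10, 12 and 9.56 CPM in the Sca-1+ libraries (log2 fold change 3.39 ± 0.412 (SE), edgeR FDR 0.000341), and Ccnb1, its cyclin, at 98.8, 98 and 66 against 11.6, 10.8 and 11.9 CPM (log2 fold change 2.93 ± 0.349 (SE), edgeR FDR 0.000308). Ccnd1, a cyclin of G1 phase, stood at 24.5, 134 and 58.7 against 7.69, 7.63 and 7.08 CPM. Cdkn1c, an inhibitor of the cycle kept in this list, moved the same way, at 189, 203 and 153 against 29.7, 25.5 and 27.6 CPM (log2 fold change 2.72 ± 0.257 (SE), edgeR FDR 8.82e-05). Mki67, by contrast, stood at 58.6, 23.5 and 37.9 against 38, 42.3 and 35.1 CPM and was not called. Without Itga8+ replicate 2, 18 members were called. Blood cell markers moved in the same direction, as given below, and the part of cycling blood cells in these genes was not tested.

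Genes of glycolysis and the response to low oxygen, taken as 1 list, were higher in Itga8+ MSCs in 9 of 25 cases, 36% beside 12.9% of all genes. Ldha, lactate dehydrogenase, stood at 1389, 2466 and 1390 CPM in the Itga8+ libraries and 623, 692 and 619 CPM in the Sca-1+ libraries (log2 fold change 1.44 ± 0.292 (SE), edgeR FDR 0.00676), Eno1, enolase, at 1148, 1296 and 869 against 465, 474 and 531 CPM and the glucose transporter Slc2a1 at 109, 96.9 and 143 against 38.9, 48.9 and 42.9 CPM (log2 fold change 1.42 ± 0.286 (SE), edgeR FDR 0.00652). Egln3, Adm and Ndrg1, genes induced by low oxygen, were higher in Sca-1+ MSCs, Egln3 at 20.5, 32.2 and 17.3 CPM in the Sca-1+ libraries and 4.35, 4.67 and 2.2 CPM in the Itga8+ libraries. Hif1a, Vegfa and Pkm were not called. Gapdh, at 1.34, 0.571 and 0.404 against 1.27, 3.15 and 2.44 CPM, has many near-identical processed copies, so its value is uncertain. Members of the Itga8+ side numbered 9 without Itga8+ replicate 3 or Sca-1+ replicate 1, 2 or 3 and 14 without Itga8+ replicate 2, and those of the Sca-1+ side 1 without Sca-1+ replicate 1 or 2 and 3 without Itga8+ replicate 3.

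The calls of ribosomal protein genes depended on single libraries. Of 84, 66 were called higher in Itga8+ MSCs, 78.6% beside 12.9% of all genes. The count fell to 8 without Itga8+ replicate 2 and to 11, 10 and 9 without Sca-1+ replicate 1, 2 and 3. The summed level of these genes was 3525, 11902 and 2679 CPM in the Itga8+ libraries and 1772, 1753 and 1878 CPM in the Sca-1+ libraries. Nuclear genes of the respiratory chain were called in 11 of 89 cases, a share close to the 12.9% of all genes. The count was 0 without Itga8+ replicate 2 or Sca-1+ replicate 2 or 3 and 56 without Itga8+ replicate 3 (edgeR, the same thresholds). Ribosomal protein genes have many processed copies, and single members are uncertain.

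**Figure D4:**
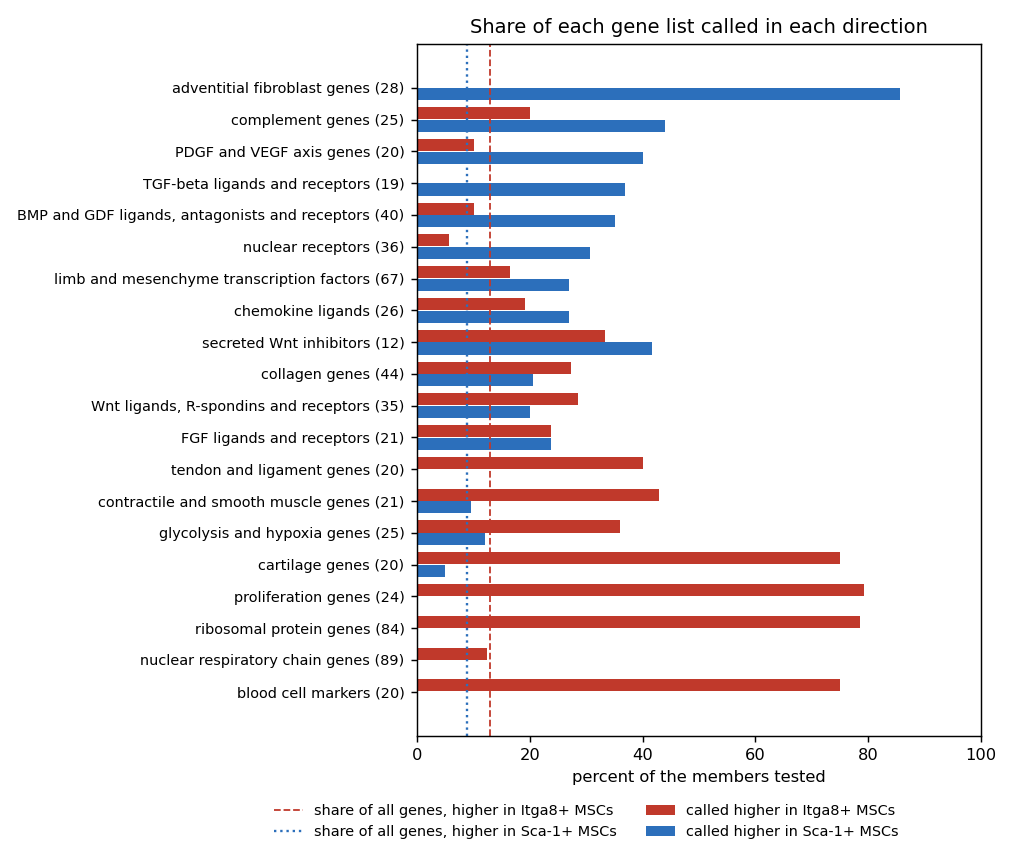
Percent of the tested members of each gene list (number in brackets) called higher in Itga8+ MSCs (red bars) or in Sca-1+ MSCs (blue bars), with vertical lines at the shares of all genes, 12.9% and 8.89%. The adventitial list has the longest bar on the Sca-1+ side, and the cartilage, proliferation, ribosomal and blood cell lists the longest on the Itga8+ side; those of ribosomal and blood cell genes shrink without Itga8+ replicate 2 and without some of the Sca-1+ libraries.

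Markers of other cell types were present in both populations, and blood and skeletal muscle markers were higher in Itga8+ MSCs where they were called. Blood cell markers were higher in Itga8+ MSCs in 15 of 20 cases, 75% beside 12.9% of all genes. The count was 5 without Itga8+ replicate 2 or Sca-1+ replicate 2 and 6 without Sca-1+ replicate 3. These markers summed to 7989, 22153 and 3254 CPM in the Itga8+ libraries and 2960, 1201 and 2079 CPM in the Sca-1+ libraries. The granule genes Ngp, at 1190, 6926 and 470 against 674, 166 and 504 CPM, and Mpo, at 3919, 3052 and 1491 against 906, 604 and 676 CPM, were among the highest of this sum, whereas Ptprc, the gene of CD45 against which the cells were sorted, stood at 17, 17.3 and 12.7 against 19.9, 7.27 and 7.45 CPM and was not called. Elane, of early granulocytes, had a log2 fold change of 3.15 and stayed called whichever library was left out, as did Mpo (1.95).

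Immediate early and heat shock genes were called in 2 of 24 cases in Itga8+ MSCs, Dnajb1 and Fosl1, and in 1 in Sca-1+ MSCs, Nr4a1, an orphan nuclear receptor, at 1041, 1612 and 1033 CPM in the Sca-1+ libraries and 576, 90.2 and 427 CPM in the Itga8+ libraries (log2 fold change -1.75 ± 0.552 (SE), edgeR FDR 0.0515). Both shares, 8.33% and 4.17%, were below those of all genes, 12.9% and 8.89%. Nr4a1 lost its call without Sca-1+ replicate 2, and the Sca-1+ side numbered 0 without Sca-1+ replicate 2 and 4 without Itga8+ replicate 3. Fosl1 shares most of its exon bases with another gene, so its value is uncertain.

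Erythroid markers had no called member of 9 (edgeR), but 1 higher in Itga8+ MSCs without Itga8+ replicate 1 and 4 without Itga8+ replicate 3, with a summed level of 188, 1606 and 160 CPM in the Itga8+ and 198, 354 and 292 CPM in the Sca-1+ libraries. Skeletal muscle markers were higher in Itga8+ MSCs in 6 of 11 cases, 54.5% beside 12.9% of all genes. Their summed levels were 26.3, 68.3 and 45.7 CPM against 4.87, 4.02 and 2.06 CPM, led by Acta1 and Tnni2. Myod1 was at or near 0 in all 6 libraries. Endothelial markers summed to 72.2, 54.5 and 27.8 CPM in Itga8+ and 132, 104 and 101 CPM in Sca-1+ MSCs, and Tek was the one called. Without Tek these sums were 68.2, 54.3 and 27.3 CPM against 38.8, 44.1 and 45.3 CPM, so that the excess in Sca-1+ MSCs was that of 1 gene. Schwann cell markers summed to 347, 571 and 349 CPM in Itga8+ and 919, 747 and 901 CPM in Sca-1+ MSCs. Of 12, S100b, Gfap and Sox10 were higher in Itga8+ and Pmp22, a myelin protein also made by fibroblasts, in Sca-1+ MSCs. S100b is also made by cartilage cells. Among 7 osteoclast markers, which summed to 659, 752 and 898 CPM in Itga8+ and 577, 768 and 607 CPM in Sca-1+ MSCs, Atp6v0d2 was higher in Sca-1+ MSCs, and Acp5 and Ctsk were not called. The part of these cell types in the comparisons above was not tested.

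**Figure D5:**
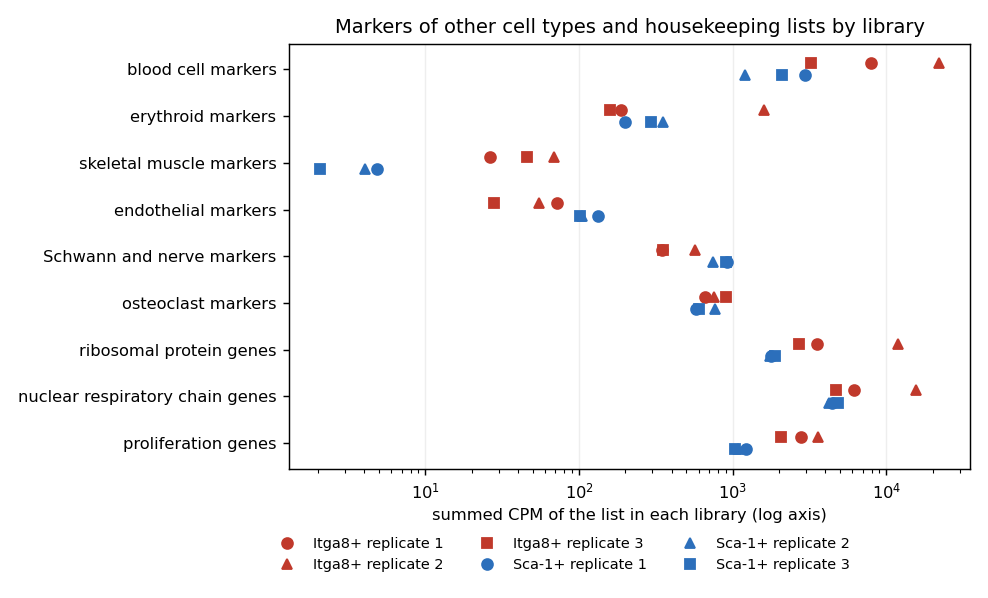
Summed CPM of marker lists of other cell types and of ribosomal, respiratory chain and proliferation genes in each library, on a log axis; colour gives the population and marker shape the replicate. Itga8+ replicate 2 (red triangle) is highest for blood cell, erythroid, ribosomal and respiratory chain genes, and all 3 Itga8+ libraries lie above the Sca-1+ libraries for proliferation and skeletal muscle genes.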

How the data were processed

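RNA of 2000 sorted cells per library was turned into cDNA with a SMART-Seq v4 kit and into Nextera XT libraries, which do not mark strand. The authors deposited raw read counts per Ensembl gene, 1 library per file. The study's methods name TopHat/Bowtie2 for mapping to mm10 (GRCm38), whereas the submitters' processing notes list FastQC 0.11.7, Trimmomatic 0.38, HISAT2 2.1.0, SAMtools 1.9 and featureCounts 1.6.3. The annotation release, the strand setting and the rule for reads with several matches are not given in the sources used here, so overlapping genes and near-identical copies are uncertain. Of 49585 identifiers 259 were not listed in GENCODE M21, from which symbols and exon lengths were taken.

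A gene was kept where 1 library or more reached 0.5 CPM. All 12 libraries entered 1 quasi-likelihood fit in edgeR 4.0.16 (R 4.3.3) with TMM normalisation, and the contrast was Itga8+ minus Sca-1+ MSCs, two-sided, with Benjamini-Hochberg adjustment. CPM were computed on TMM-effective library sizes. A value of 0 was set at a floor of 3 counts per library, which was 0.141 to 0.173 CPM, where a fold is given as a bound. Intervals on ratios of pooled counts are exact 95% intervals, and they and the floor cover counting error only. Alternatives were DESeq2 1.42.0, limma 3.58.1, other scalings, filters, thresholds and depths, the 6 libraries alone, a replicate block and each library left out.

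The members and lists were chosen with earlier results of these data known. Named genes were the 8 of each direction with the widest gap in log2 CPM between the libraries and the 6 of highest mean CPM, both among called genes with a mean of at least 10 CPM and no overlap, not corrected for transcript length. To these were added the sort genes, up to 6 called members of highest mean CPM of each list, and defining members by name. Other members were named after their values were seen. Some members of the lists are not reported here by name.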

Additional observations from a re-analysis of the deposited data

How the results depend on the processing

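The counts of called genes, 2397 higher in Itga8+ and 1658 higher in Sca-1+ MSCs, stayed within 1.5 times under other scalings (RLE size factors and library totals), other filters, DESeq2, limma-trend, thinning to the smallest total and removal of the length trend, where they ran from 2256 to 2982 and from 1537 to 2301. limma voom with sample weights called 3088 genes higher in Itga8+ and 3077 higher in Sca-1+ MSCs, and limma-trend 2306 and 2301. In both limma fits 50.1% of the calls were higher in Itga8+ MSCs, against 59.1%, so the counts were close to even, and with the replicate block in the fit of 6 libraries the share was 48.7%. An FDR under 0.05 left 1578 genes higher in Itga8+ MSCs, and a test against a 2-fold change, which demands more of each gene, left 1002 and 690. A fit of the 6 libraries alone, which has fewer samples to set the spread, called 1588 genes higher in Itga8+ MSCs. Leaving out 1 library at a time gave 1358 to 3110 genes higher in Itga8+ and 1028 to 2768 higher in Sca-1+ MSCs, with the highest counts without Itga8+ replicate 3 and the lowest without Sca-1+ replicate 2. The cause was not tested.

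With the replicate block in the fit of 12 libraries 1636 and 1242 genes were called, and with the replicate block in the fit of 6 libraries 656 and 690, in the same order. Of 70 gene list counts above 0, the latter fit lowered 40 by over 1.5 times and raised none by as much. On the Itga8+ side, cartilage genes fell from 15 to 9, proliferation genes from 19 to 11, axon guidance genes from 11 to 4, osteoblast genes from 7 to 3, matrix proteases and inhibitors from 8 to 3, glycolysis and hypoxia genes from 9 to 1, blood cell markers from 15 to 2, and ribosomal protein and respiratory chain genes from 66 and 11 to 0 (edgeR, with 29 and 1 at an unadjusted p under 0.05). On the Sca-1+ side, nuclear receptors fell from 11 to 1. Tendon genes numbered 7, against 8, and adventitial genes 22, against 24. Same-numbered Itga8+ and Sca-1+ libraries did not deviate together from their group means. The correlations over genes were 0.0808, -0.251 and -0.21 for replicates 1, 2 and 3. Deviations from means of 3 libraries cannot decide whether the numbers pair the samples, and pairing was not tested.

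Of 209 called genes named in the report, 153 kept their call under every alternative and 178 with each library left out in turn. The replicate block in the fit of 6 libraries and the test against a 2-fold change each lost 47 of these calls, and leaving out 1 library lost 3 to 23. The log2 fold change of C1qc changed sign, from -0.09 without Itga8+ replicate 2 to 10.04 without Sca-1+ replicate 3. Genes under about 1 CPM are limited by depth, since 3 counts in a library amount to 0.141 to 0.173 CPM.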
